A study of Mus musculus with 3 samples.

Results

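The 91 genes described here encode subunits of the mitochondrial respiratory chain and of ATP synthase, among 28692 gene IDs in the count table. Their symbols start with mt-Nd, mt-Co, mt-Cyt or mt-Atp (the mitochondrial genome), or with Ndufa, Ndufb, Ndufc, Ndufs, Ndufv, Sdha to Sdhd, Uqcr, Cox4 to Cox8 or Atp5 (the nuclear genome), and each holds at least 1000 unique molecular identifiers (UMIs, 1 per captured transcript) over all cells. Of 98 matching symbols, 13 mitochondrial and 78 nuclear genes passed that limit. The members just inside it were Atp5s with 1487 UMIs and mt-Nd6 with 1789, and the 7 genes outside it were Cox4i2 with 792, Cox7a1 with 323, Cox6a2 with 273, Ndufa4l2 and Cox8c with 3 each, Cox7b2 with 2 and Cox8b with 0. Assembly factors and pseudogene names were left out. The symbol rule counts Ndufa4 under complex I, although its protein is known as a subunit of complex IV, and it does not take in Cyc1, Usmg5 or Atpif1.

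The cells came from the bone marrow of wild-type C57BL/6 mice and are labelled as a modified granulocyte-monocyte progenitor (GMP) sort after enrichment for CD117, the stem cell factor receptor. The study has 1 male and 1 female mRNA library, made with a droplet assay that counts transcript 3′ ends, and an antibody tag library that was not analysed here. The number of mice, their age and the sort gates could not be stated, being not given in the sources used here, and paired values below are for the female and then the male library. The labels name no treatment and no engineered allele, so the groups compared are the 17 cluster labels that the authors gave to the cells of both libraries. With 1 library per sex, sex and library cannot be told apart. The p-values concern these 2 libraries only. They set a difference between groups of labels against a spread that, with 1 residual degree of freedom, is mostly borrowed across genes. A very small p-value therefore does not show how far that gene itself varies between the libraries.

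Classes of labels were used in the comparisons. Gran-1 and Gran-2 make up the Gran class. The early class takes in Multi-Lin, HSCP-1 and HSCP-2, and the monocytic class MDP, cMoP and Mono. Myelo-1 to Myelo-4 form the Myelo class, and Meg was joined with Eryth. The labels IG2, MP and DC were described but not tested. How the authors clustered the cells, and whether the genes described here took part, was not given in the sources used here.

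In all, the table holds 11132 cells, 4336 female and 6796 male, with 91448433 and 124967351 UMIs. The shallowest cell had 4373 UMIs, and 45 barcodes occur in both libraries. The members took 5.81% of the female and 6.01% of the male UMIs. Summed marker genes matched most labels: erythroid genes had counts-per-million (CPM) values of 2840 and 2697 over all UMIs in Eryth, against 365 and 254 CPM in HSCP-2, the next label. Megakaryocyte genes were highest in Meg, dendritic genes in DC, granulocyte genes in Gran-2 and late neutrophil genes in Myelo-4. The monocyte list was highest in DC and then in cMoP, so the monocytic class is named by its labels. Basophil and mast cell genes reached 2042 and 2588 CPM in Multi-Lin, and their part in the results for the early class was not tested.

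The respiratory chain moves electrons from food to oxygen across the inner mitochondrial membrane. Complex I takes them from NADH, complex II from succinate, complex III passes them to cytochrome c, and complex IV hands them to oxygen. The proton gradient built on the way drives ATP synthase, here called complex V. Mitochondrial DNA encodes a small set of membrane subunits, complex II has nuclear subunits alone, and the nuclear genes are scattered over the chromosomes (19 chromosomes for the 78 nuclear members). Mature neutrophils are known for few mitochondria and for a reliance on glycolysis, and their progenitors for more.

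Nuclear respiratory genes are known for promoters that bind nuclear respiratory factor 1 (NRF1), whose recognition sequence is a GC palindrome. Promoters of 4 members with the full palindrome upstream of the annotated start are shown as examples of that palindrome in its promoter context. They were chosen after their values were seen and support no link between the motif and the calls. The sequences are 100 bases each, from RefSeq on GRCm38.p6, written 5′ to 3′ on the gene's strand, with motif matches in capitals. They end at the base before the start site, except that of Cox6a1, which runs from 182 to 83 bases before it.
Ndufa11, chr17:56717662-56717761, plus strand: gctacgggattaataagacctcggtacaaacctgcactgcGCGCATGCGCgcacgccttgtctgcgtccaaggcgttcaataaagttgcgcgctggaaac
Cox6a1, chr5:115349041-115349140, minus strand: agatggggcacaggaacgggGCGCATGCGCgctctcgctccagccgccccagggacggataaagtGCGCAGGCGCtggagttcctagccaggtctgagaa
Atp5g2, chr15:102671048-102671147, minus strand: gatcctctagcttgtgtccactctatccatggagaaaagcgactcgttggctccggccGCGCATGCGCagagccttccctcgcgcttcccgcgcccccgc
Atp5k, chr5:108434400-108434499, minus strand: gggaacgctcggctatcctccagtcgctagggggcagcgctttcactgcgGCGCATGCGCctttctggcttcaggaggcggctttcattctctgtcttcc

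The next sequences are the same window of the 3 nuclear members that were lower in Gran than in early. None of the motifs searched for occurs in these 100 bases, but the longer window of Sdhb, searched as described next, holds the ETS motif.
Sdhb, chr4:140961171-140961270, plus strand: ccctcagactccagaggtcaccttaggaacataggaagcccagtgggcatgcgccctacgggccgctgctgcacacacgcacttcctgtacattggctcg
Cox6b2, chr7:4753095-4753194, minus strand: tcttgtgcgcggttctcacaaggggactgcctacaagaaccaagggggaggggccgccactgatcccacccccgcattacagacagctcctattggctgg
Cox7a2l, chr17:83514334-83514433, minus strand: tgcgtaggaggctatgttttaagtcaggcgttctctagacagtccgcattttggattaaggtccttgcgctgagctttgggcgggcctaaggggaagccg

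RefSeq promoter windows of 250 bases before to 50 bases after the start were found for 66 of the 78 nuclear members and searched on both strands. The palindrome (GCGC, then AT, then GCGC) was present in 5 of the 66 (7.58%), against 1.07% of all 27025 promoters and 2.48% of the promoters of 9332 tested genes. The looser form (GCGC, any 2 bases, GCGC), which contains it, was present in 19 members (28.8%), against 7.0% of all promoters and 15.4% of those of tested genes. The sequence AAGATGGC, written for the factor YY1, was present in 10 (15.2%, against 3.19% and 5.64%), and CCGGAAG, written for ETS factors, in 16 (24.2%, against 9.93% and 21.2%). A match is a string of letters and not a bound site. In Gran against early, 37 of 39 members with a match to 1 or more of these motifs and 23 of 27 without were higher, with median log2 fold changes of 0.50 and 0.53.

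Summed transcripts of the nuclear members were low in HSCP-2, high in MP, Mono, cMoP and Gran-1 and lowest in Myelo-2 to Myelo-4. HSCP-2 held 25425 and 26282 CPM, and Multi-Lin held 31105 and 32087 CPM. MP held 37596 and 38982 CPM, 1.48 times the mean of HSCP-2. Mono, cMoP, Gran-1 and IG2 lay close to MP, between 35428 and 37749 CPM in either library. The male sum was higher than the female in 17 of 17 labels, and differences between neighbours among these labels were not tested. The step from HSCP-2 to Multi-Lin and that from Multi-Lin to MP were larger than the gap between libraries.

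The mitochondrial sum followed another order. It was highest in Gran-2, with 30267 and 29392 CPM, and close behind in Mono, with 29227 and 28796 CPM. HSCP-2 held 23733 and 23247 CPM, and Meg, with 20788 and 21099 CPM, and Eryth, with 21930 and 20157 CPM, lay below it. DC, with 11 female and 22 male cells, held 17932 and 18268 CPM. In HSCP-2 the ratio of mitochondrial to nuclear UMIs was 0.933 and 0.885, against 0.778 and 0.752 in Gran-1 and 0.646 and 0.647 in Meg. In Gran-2 the ratio was 0.906 and 0.856.

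Myelo-2 to Myelo-4 had the lowest nuclear sums when counted in CPM of all UMIs. The nuclear sum was 28315 and 28825 CPM in Myelo-1, 19981 and 20310 in Myelo-2, 19084 and 20373 in Myelo-3, and 15751 and 15836 in Myelo-4. These cells devote much of their RNA to the late neutrophil genes Camp, Ltf, Ngp, Lcn2, S100a8 and S100a9, which encode granule proteins and calprotectin. The 6 genes held 8734 and 7157 CPM in Gran-1, 33688 and 35153 in Gran-2, 180700 and 184200 in Myelo-1, and 473427 and 417920 in Myelo-3. In all labels outside Gran and Myelo they held between 4422 and 7905 CPM.

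In CPM of the UMIs outside those 6 genes, the nuclear sum was close to level from Gran-1 to Myelo-3. It was 36513 and 37601 in Gran-1, 34591 and 35602 in Gran-2, 34560 and 35333 in Myelo-1, 35003 and 35545 in Myelo-2, and 36243 and 35000 in Myelo-3. Myelo-3 therefore stood at 0.962 of Gran-1 on this scale and at 0.536 of it on the scale of all UMIs. Of the Gran and Myelo labels, Myelo-4, with 31 and 28 cells, was the lowest, at 30611 and 30034. The complexes did not share this level course: complex II went from 520 and 514 in Gran-1 to 401 and 412 in Myelo-3, and nuclear complex III from 4147 and 4341 to 3441 and 3455. Nuclear complex I stood at 11060 and 11488 in Gran-1 and at 11904 and 11338 in Myelo-3, and nuclear complex IV at 9671 and 9932 and at 10338 and 9792.

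The mitochondrial sum fell short of the nuclear one in the later Myelo labels on either scale. In CPM of the UMIs outside the 6 genes it was 31322 and 30463 in Gran-2, 30442 and 30137 in Myelo-1, 23616 and 24546 in Myelo-2, and 19650 and 23502 in Myelo-3. The 7 mitochondrial complex I genes went from 5885 and 5595 in Gran-2 to 3270 and 3559 in Myelo-2 and 2480 and 3434 in Myelo-3. For the 3 mitochondrial complex IV genes the same labels, Gran-2, Myelo-2 and Myelo-3, had 14402 and 13688, then 13089 and 13068, then 11620 and 12665. The mitochondrial value of the male Myelo-4 cells, 33744, rests on 1 cell: that cell had 23.5% mitochondrial UMIs and held 45.5% of the label's mitochondrial UMIs. Without cells above 10% mitochondrial UMIs, Myelo-4 held 8863 and 10044 CPM of all UMIs.

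Counts per cell ran alongside depth. The median cell held 204 and 173 mitochondrial member UMIs in HSCP-2, 758 and 616 in Gran-1, and 89 and 87 in Myelo-3. Median total UMIs were 8298.5 and 7140.5 in HSCP-2, 27601.5 and 22359 in Gran-1, and 9531 and 8770 in Myelo-3. CPM alone does not separate fewer transcripts per cell from a smaller share of the total. Median total UMIs and median mitochondrial member UMIs were both lower in Myelo-3 than in Gran-1. Whether captured UMIs follow the RNA content of a cell was not tested.

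**Figure D1:**
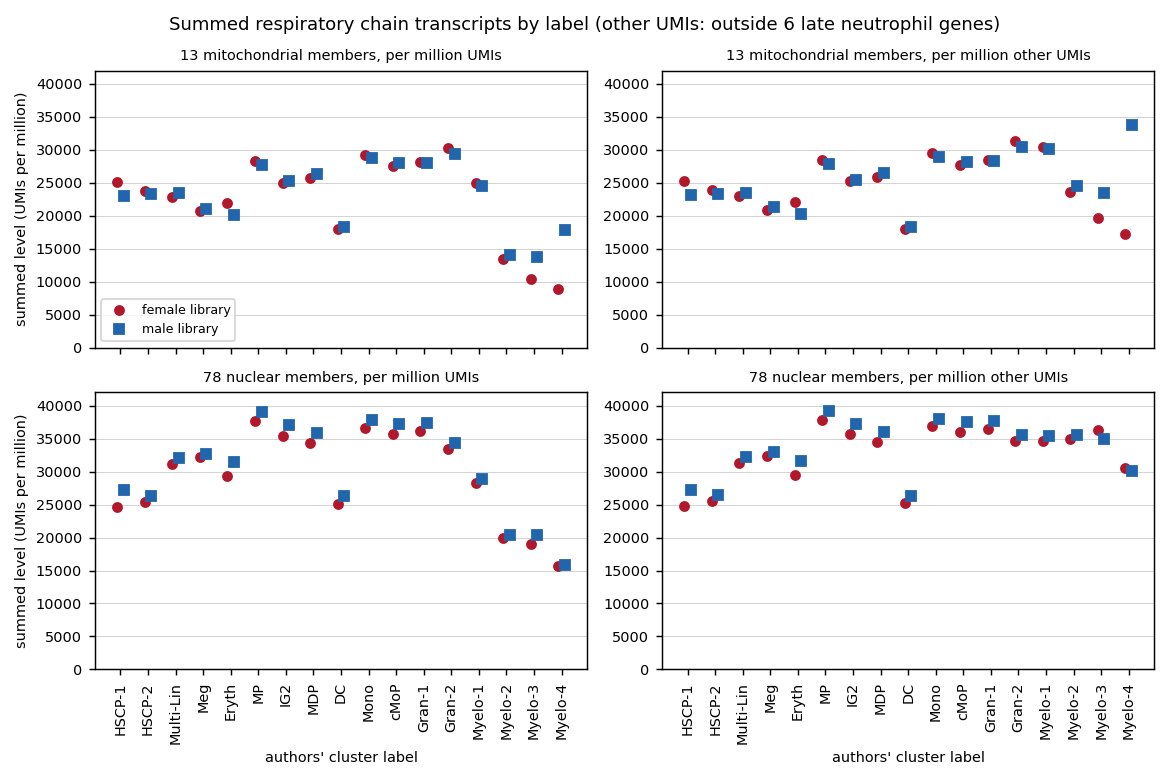
Summed level of the 13 mitochondrial (upper row) and 78 nuclear members (lower row) by cluster label, as CPM of all UMIs (left) and as CPM of the UMIs outside Camp, Ltf, Ngp, Lcn2, S100a8 and S100a9 (right). Circles are the female and squares the male library; on the right the nuclear sum stays between 34560 and 37601 from Gran-1 to Myelo-3, while on the left it goes from 36194 and 37332 to 19084 and 20373.

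Over the 15 labels with at least 20 cells in each library, the median member had a smaller range than the median of genes at or above 50 CPM. The ratio of a gene's highest to its lowest mean CPM had a median of 2.89 for the 77 nuclear members with a value in every label and 2.92 for the mitochondrial members, against 4.63 for the 2194 genes with a mean of 50 CPM or more. Of the 78 nuclear members, 59 were lowest in Myelo-4, 24 were highest in MP and 16 in cMoP. The share of all genes with their extremes in these labels was not counted. The 6 late neutrophil genes took 485434 and 472731 CPM in Myelo-4, which leaves a smaller share of the total to other genes there. These counts are therefore not read as results about the members. Of the 13 mitochondrial members, 9 were lowest in Myelo-3 and 5 highest in Gran-2, likewise without a share of all genes. In male Myelo-4, 1 cell held 45.5% of the mitochondrial UMIs, which raises the mean of that label. In the female library the mitochondrial sum was lower in Myelo-4 than in Myelo-3, with a log2 ratio of -0.22.

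Within the mitochondrial sum, the make-up differed between labels. The mitochondrial genes lie on chrM (GRCm38.p6), where mt-Co1 spans chrM:5328-6872, mt-Nd1 chrM:2751-3707, mt-Nd2 chrM:3914-4951, mt-Atp6 chrM:7927-8607 and mt-Co3 chrM:8607-9390, and all but mt-Nd6 are transcribed from the same strand. mt-Co1 encodes the catalytic core of complex IV. Its share of the mitochondrial sum was 18.6% in female and 16.2% in male HSCP-2, 13.8% and 12.1% in Gran-1, 21.1% and 18.2% in Myelo-2, and 24.5% and 19.6% in Myelo-3. The share was lowest in Eryth, at 12.6% and 11.2%, and the ranges of HSCP-2 and Eryth, and of Myelo-3 and Gran-1, did not overlap.

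mt-Nd1 and mt-Nd2 encode membrane subunits of complex I. mt-Nd1 took 6.64% and 6.78% in HSCP-2, 10.3% and 10.2% in Gran-1, 11.5% and 11.6% in Eryth and 5.62% and 6.54% in Myelo-3. mt-Nd2 took 2.56% and 2.60% in HSCP-2, 3.32% and 2.98% in Eryth, 2.44% and 2.38% in Gran-1 and 1.39% and 1.49% in Myelo-2. HSCP-2, Myelo-2 and Myelo-3 were thus high in mt-Co1 and low in mt-Nd1, with values that did not overlap those of Gran-1 for either gene. The mt-Co3 share went from a mean of 21.1% in Eryth to 23.3% in Myelo-2. mt-Atp6 was highest in Gran-2 with a mean of 26.3% and lowest in Myelo-4 with 20.4%.

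Part of this make-up differed between the libraries in every label. The mt-Co1 share was higher in the female library in 17 of 17 labels, by a median factor of 1.15 (ratios up to 1.60), and the mt-Atp6 share was higher in the male library in 17 of 17. The ratio of 1.60 is that of Myelo-4, where 1 male cell held 45.5% of the mitochondrial UMIs. The nuclear sum was higher in the male library in 17 of 17 labels and the mitochondrial sum in 9 of 17. The differences between labels given above are therefore read within a library. Overlapping reading frames on the same strand cannot be separated fully: mt-Atp8 shares 43 bases with mt-Atp6, and mt-Nd4l 7 with mt-Nd4. mt-Nd5 shares 14 bases with mt-Nd6, which lies on the other strand.

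**Figure D2:**
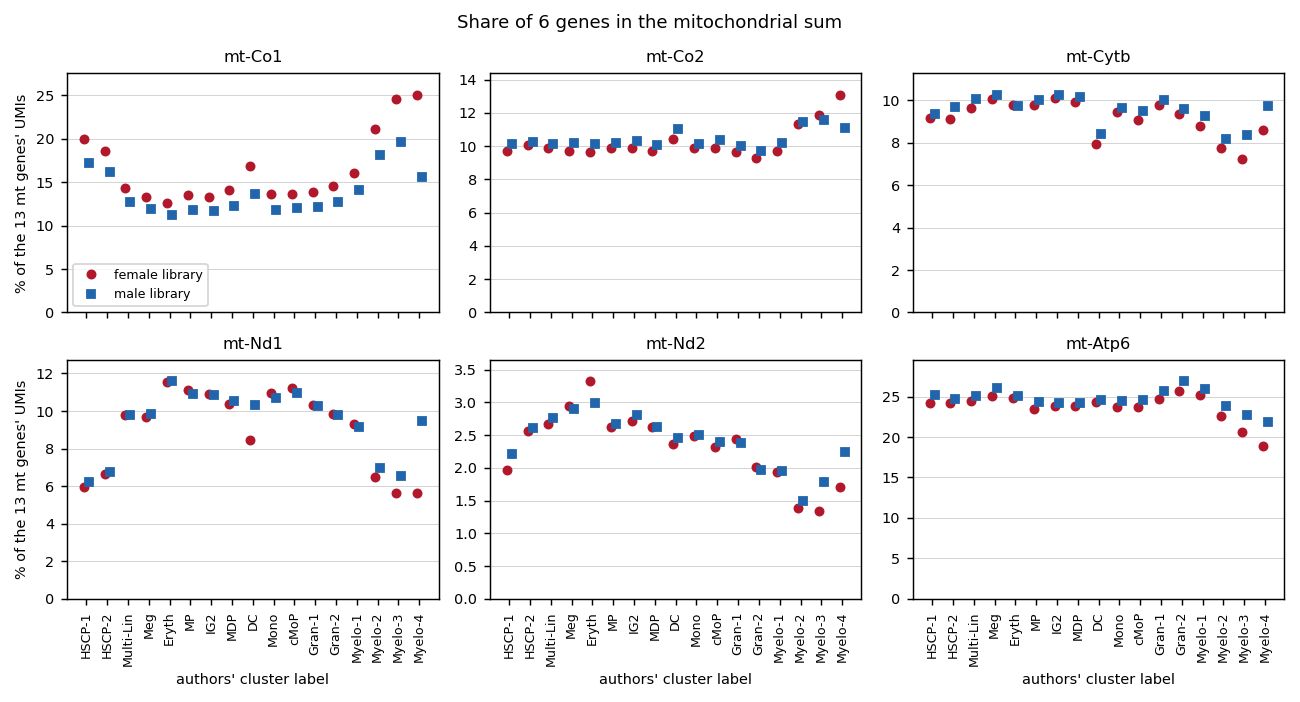
Share of 6 mitochondrial genes in the summed UMIs of the 13 mitochondrial members, in percent, by cluster label; circles are the female and squares the male library. mt-Co1 is high in HSCP-2, Myelo-2 and Myelo-3, where mt-Nd1 is low, and the female circles of mt-Co1 lie above the male squares in 17 of 17 labels.

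The make-up of the nuclear sum was steady for some subunits and shifted for others. The complex IV subunits Cox8a, Cox7c and Cox4i1 kept their shares within 1.14-fold, 1.19-fold and 1.22-fold over the 15 labels. Cox6b2, known as a testis form of a complex IV subunit, moved most among members above 0 in every label: its mean share was 0.795% in Eryth and 0.154% in cMoP, a ratio of 5.16. Ndufv1, which carries the NADH site of complex I, went from 0.479% in Eryth to 0.110% in Myelo-4, and Atp5a1, a catalytic head subunit of ATP synthase, from 2.02% in Meg to 0.604% in Myelo-4. In the opposite direction, the accessory subunit Ndufb7 went from 0.854% in Eryth to 2.79% in Myelo-4 and Ndufv3 from 0.638% in Multi-Lin to 1.90% in Myelo-4.

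The shares of both accessory subunits were higher in each next label from Gran-1 to Myelo-2. The Ndufv3 share was 0.861% and 0.860% in Gran-1, 1.22% and 1.14% in Gran-2, 1.41% and 1.37% in Myelo-1 and 1.75% and 1.72% in Myelo-2. The Ndufb7 share was 1.21% and 1.27%, 1.40% and 1.47%, 1.70% and 1.71%, and 2.35% and 2.31% in the same labels. No neighbouring pair of these labels overlapped for either gene. The order did not go on in Myelo-3, where the Ndufv3 share of 1.64% and 1.53% was below that in Myelo-2 and the Ndufb7 share of 2.46% and 2.22% overlapped it.

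**Figure D3:**
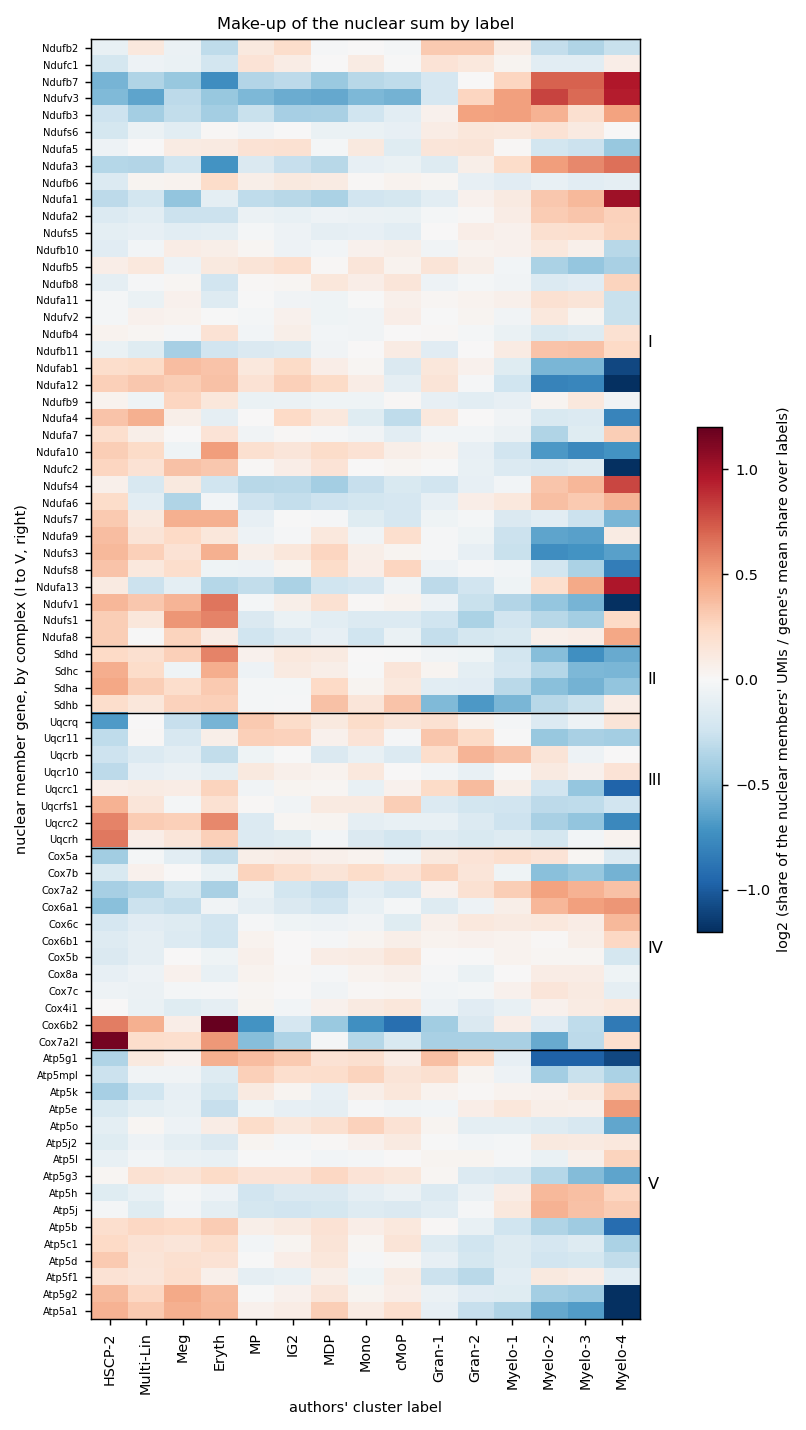
Share of each of 76 nuclear members (rows, by complex; those not drawn include Atp5s, at 0 in Myelo-4) in the summed nuclear members, as the log2 ratio to that gene's mean over 15 labels (columns). Red is above and blue below the gene's own mean: Ndufv3 and Ndufb7 are blue in the labels before Gran-1 and red from Myelo-1 to Myelo-4, Ndufv1, Atp5a1 and Atp5g2 turn blue, and Cox6b2 and Cox7a2l are red in HSCP-2 and Eryth.

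The first tested comparison asks how the chain differs between Gran and early cells. Most members were higher in Gran. Of the 13 mitochondrial members 12 rose and 0 fell, and of the 78 nuclear members 68 rose and 3 fell, in edgeR at an adjusted p under 0.05. In the same fit 32.5% of all 12051 genes tested were called higher and 34.2% lower (66.7% in either direction). The median log2 fold change was 0.54 for the mitochondrial and 0.50 for the nuclear members, against -0.02 for all genes. Scaling by total UMIs moved the median of all genes by -0.29 in this comparison, and the nuclear split was then 49 higher and 17 lower. Of all genes, 16.1% were called higher and 56.1% lower in that setting.

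In complex I the accessory subunits, which surround and stabilise the catalytic part, rose in 30 of 30 cases with a median of 0.54. Ndufb3 stood at 344 and 363 CPM in Gran cells and at 165 and 170 CPM in early cells, a log2 fold change of 1.08 ± 0.03 (SE, edgeR adjusted p = 1.43e-13). Ndufv3 stood at 368 and 379 CPM against 175 and 183 CPM, with 1.06 ± 0.03. The Gran and early values of both genes lie far apart. The 7 nuclear core subunits, which hold the flavin and iron-sulfur clusters, had a median of 0.18, and 4 of them rose. Ndufs1, the largest core subunit, had 30.7 and 32.9 against 28.3 and 31.7 CPM and did not pass, nor did Ndufv1. Ndufv1 passed as higher with size-factor scaling (0.10), no filter on low counts (0.11) and Gran-1 alone (0.13). Scaled by total UMIs it had -0.21. Among the mitochondrial complex I genes mt-Nd1 rose by 0.71 ± 0.02, and mt-Nd6 did not pass.

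Complex II, which is also the succinate dehydrogenase of the tricarboxylic acid (TCA) cycle, did not move as 1 unit. The membrane anchors Sdhc and Sdhd rose by 0.26 ± 0.04 and 0.28 ± 0.04. The iron-sulfur subunit Sdhb stood at 143 and 152 CPM in Gran and 162 and 175 CPM in early cells and fell by 0.19 on the log2 scale (edgeR adjusted p = 0.000127). In a fit over 17 labels that weighted each label equally, Sdhb had -0.06 and did not pass (edgeR adjusted p = 0.626). The flavin subunit Sdha had 146 and 144 against 137 and 139 CPM and did not pass (edgeR adjusted p = 0.107). Sdha passed as higher with size-factor scaling (0.09) and with no filter on low counts (0.10), and had -0.22 per total UMIs. Scaled by total UMIs, the values of Sdhc and Sdhd were -0.03 and -0.01.

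Complexes III and IV gave some of the clearest rises. Uqcrb, a small subunit of complex III, stood at 954 and 1059 CPM in Gran against 486 and 554 CPM in early cells, 0.95 ± 0.02. Uqcr11 rose by 0.85 ± 0.02, whereas the core protein Uqcrc2 had 169 and 184 against 166 and 173 CPM and did not pass. Uqcrc2 passed as higher with no filter on low counts (0.09), and scaled by total UMIs it had -0.23. In complex IV 10 of 12 nuclear members rose, led by Cox7a2, at 789 and 812 against 409 and 423 CPM (0.94 ± 0.02), and Cox6c (0.73 ± 0.02). The 2 that fell were isoforms or relatives of members that rose: Cox7a2l, a factor in supercomplex assembly, had 375 and 377 against 443 and 449 CPM and fell by 0.25, and Cox6b2 had 89.4 and 90.3 against 106 and 112 CPM and fell by 0.28. With each label weighted equally in a fit over 17 labels, Cox6b2 had 0.28 and did not pass.

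In ATP synthase 15 of 17 nuclear members rose and 0 fell. The membrane subunits that join monomers into dimers rose in 4 of 4 cases, with a median of 0.67, and Atp5k, 1 of them, stood at 571 and 584 against 328 and 329 CPM (0.81 ± 0.03). The catalytic head and stalk had a median of 0.22. Its subunit Atp5a1 had 538 and 544 against 504 and 540 CPM and did not pass, and with Gran-2 as the sole Gran label its log2 fold change was -0.11. Atp5a1 passed as higher with size-factor scaling (0.07), no filter on low counts (0.08) and Gran-1 alone (0.09). It also passed as higher in the fit over 17 labels (0.25), and scaled by total UMIs it had -0.24. Of the c ring genes, Atp5g1 rose by 0.79 ± 0.02, Atp5g3 by 0.34 ± 0.03 and Atp5g2 by 0.16 ± 0.02. mt-Atp6, the proton channel beside the ring, stood at 7819 and 8245 against 5046 and 5332 CPM, 0.63 ± 0.01.

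Other genes differed between the same cells. In a list of 14 stress genes (immediate early genes and heat shock genes), 13 were lower in Gran and 0 higher, in a list of G2/M genes 11 of 15 were higher and 2 lower, and in a list of S phase genes 8 of 15 were higher and 4 lower. Their part in the results for the members was not tested.

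Gran against monocytic compares the granulocytic with the monocytic labels, and here the chain split. Of the mitochondrial members 7 rose and 2 fell in Gran, and of the nuclear members 32 rose and 25 fell. In edgeR, 25.7% of all 11602 genes were called higher and 25.4% lower (51.0% in either direction). The medians were 0.03 for the mitochondrial and 0.0049 for the nuclear members. Scaling by total UMIs gave 19 nuclear members higher and 36 lower, with 20.2% of all genes higher and 30.2% lower. These calls rest on small differences: without the library term 10 nuclear members were higher and 6 lower, with 0 mitochondrial calls. With DESeq2 21 nuclear members were higher and 11 lower. Of all genes, 15.6% were higher and 15.9% lower without the library term, and 11.7% and 10.1% with DESeq2.

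The largest difference was in complex II. Sdhb stood at 132 and 140.5 CPM in Gran cells and at 221 and 231 CPM in the monocytic cells, so that the groups did not overlap, and it fell by 0.73 on the log2 scale (SE 0.03, edgeR adjusted p = 4.94e-25). Sdha fell by 0.17, and Sdhc and Sdhd, at 103.5 and 111 against 103 and 111 CPM and at 131 and 127 against 136 and 128 CPM, did not pass. The Sdhb level was 244 and 248 CPM in MDP and 248 and 258 in cMoP, and 138 and 142 in Gran-1, 111 and 119 in Gran-2 and 84.1 and 95.6 in Myelo-3. HSCP-2 and Multi-Lin lay between the monocytic and the Gran labels, with 161 and 166 CPM in HSCP-2 and 185 and 196 in Multi-Lin.

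In complex I, 16 of 30 accessory subunits rose and 4 fell, whereas 2 of 7 core subunits rose and 4 fell. Ndufv3 (340 and 350 against 243 and 243 CPM) rose by 0.51 ± 0.02 and Ndufb3 by 0.45 ± 0.02. In complex III, Uqcrb rose by 0.40 ± 0.02 and Uqcrc1 by 0.35 ± 0.02, and the Rieske iron-sulfur protein Uqcrfs1 (197 and 197 against 235 and 242 CPM) fell by 0.27. In complex IV, Cox6b2 rose by 0.38 ± 0.04 and Cox7a2 by 0.26 ± 0.02, and Cox4i1 fell by 0.15. In ATP synthase 4 of the 5 head and stalk subunits fell, among them Atp5a1 (497 and 502 against 580 and 610 CPM, lower by 0.25), as did Atp5o (by 0.23), and Atp5g1 rose by 0.18 ± 0.02. Of the mitochondrial genes mt-Atp6 rose by 0.14 ± 0.01 and mt-Co1 by 0.10 ± 0.01. mt-Nd2 had 672 and 667 against 691 and 705 CPM and fell by 0.06, a log2 ratio of -0.04 without the male library.

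Genes of the same list of stress genes were lower in Gran in 14 of 14 cases, and 8 of 15 G2/M genes and 11 of 15 S phase genes were lower. Their part in these results was not tested.

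Myelo against Gran compares the labels rich in late neutrophil transcripts with the Gran labels. Relative to the median gene the chain was lower in Myelo: 8 of 13 mitochondrial members fell and 1 rose, and 41 of 78 nuclear members fell and 10 rose. Among all 11473 genes in this edgeR fit 32.5% were called lower and 33.5% higher (66.0% in either direction). The medians were -0.21 and -0.18, against -0.01 for all genes. Scaling by total UMIs moved the median of all genes by -0.49, and then 76 nuclear members were lower and 0 higher and 13 of 13 mitochondrial members lower. Of all genes, 56.2% were called lower and 15.6% higher in that setting. The rises given next are therefore rises relative to the median gene, those of mt-Co1, Cox6a1, Atp5h and Atp5j have the opposite sign per total UMI, and those of Ndufv3 and Ndufb7 do not pass there.

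The c ring of ATP synthase fell in 3 of 3 genes. Atp5g1 fell most of the named members, from 757 and 875 CPM in Gran cells to 382 and 443 CPM in Myelo, by 0.98 on the log2 scale (SE 0.09). Atp5g3 fell by 0.44, Atp5g2 by 0.35 and the head subunit Atp5a1 by 0.51. The peripheral stalk subunits Atp5h and Atp5j rose by 0.25 ± 0.06 and 0.23 ± 0.09. The Atp5j call was lost with no filter on low counts (edgeR adjusted p = 0.0666) and without the library term (0.0517). In the fit over 17 labels the calls of Atp5h and Atp5j were both lost (edgeR adjusted p = 0.166 and 0.438).

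In complex I, 5 of 7 core subunits fell and 0 rose, and 14 of 30 accessory subunits fell and 7 rose. Ndufa12 stood at 132 and 143 CPM in Myelo against 222 and 248 CPM in Gran and fell by 0.78, and Ndufa10 fell by 0.63. Ndufv3 had 431 and 414 against 280 and 290 CPM and rose by 0.57 ± 0.08, and Ndufb7 had 576 and 549 against 370 and 413 CPM and rose by 0.52 ± 0.08. Of the mitochondrial genes, mt-Nd2 fell by 0.63, mt-Nd1 by 0.58, mt-Nd3 by 0.52, mt-Cytb by 0.43, mt-Nd4 by 0.37, mt-Atp6 by 0.30 and mt-Co3 by 0.21. mt-Co1 stood at 3813 and 3446 CPM in Myelo against 3339 and 2980 CPM in Gran and rose by 0.20 ± 0.08 (edgeR adjusted p = 0.0238). That call was lost with no filter on low counts (edgeR adjusted p = 0.163), without the library term (0.110), in cells thinned to 4000 UMIs (0.150), in the fit over 17 labels (0.757) and without Myelo-1 (0.220), and under total-UMI scaling mt-Co1 fell by 0.29.

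Complex II fell in 3 of 4 genes, with Sdhd at 77.4 and 71.3 against 108 and 106 CPM (lower by 0.52), Sdhc lower by 0.46 and Sdha by 0.45. Sdhb, already low in Gran, had 111 and 117 against 108 and 117 CPM and did not pass. Complex III fell in 6 of 8 genes, Uqcr11 by 0.67 and Uqcrc1 by 0.55. In complex IV 3 of 12 nuclear members fell, Cox7b by 0.65 and Cox7a2l by 0.18 among them, and Cox6a1 rose by 0.27 ± 0.08.

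With Myelo-1 as the sole Myelo label, 4 mitochondrial members were lower and 1 higher, and mt-Co3 and mt-Atp6 had log2 fold changes of 0.02 and 0.03. Of all genes, 19.9% were lower and 21.7% higher in that fit. Other lists moved in the same comparison: 15 of 15 G2/M genes and 11 of 14 stress genes were higher in Myelo, 9 of 15 S phase genes were lower and 4 higher, and their part in these results was not tested.

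Meg and Eryth against early compares the smallest classes, with 86 and 85 Meg cells and 41 and 43 Eryth cells. The mitochondrial members were lower in Meg and Eryth, with 9 of 13 fallen and 0 risen, while 11 nuclear members fell and 5 rose. In this edgeR fit 13.9% of 11006 genes were called lower and 10.4% higher (24.3% in either direction). The medians were -0.18 for the mitochondrial and -0.02 for the nuclear members, against -0.01 for all genes. Scaling by total UMIs gave 23 nuclear members higher and 4 lower, and 6 mitochondrial members lower. With DESeq2 4 mitochondrial members were lower, and with Eryth as the sole label 1 was. With each label weighted equally in a fit over 17 labels, 50 nuclear members were higher and 2 lower, and 1 mitochondrial member was higher and 1 lower. Of all genes, 14.8% were higher and 11.5% lower with total UMIs, and 2.80% and 4.41% with DESeq2. The shares were 5.95% higher and 9.09% lower with Eryth alone, and 8.96% and 7.56% in the fit over 17 labels.

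The 3 mitochondrial complex IV genes all fell. mt-Co1 stood at 2704 and 2380 CPM in Meg and Eryth against 3565 and 3205 CPM in early cells and fell by 0.41 (SE 0.03, edgeR adjusted p = 4.40e-47), mt-Co3 fell by 0.28 and mt-Co2 by 0.24. mt-Nd5 fell by 0.31, and mt-Cytb by 0.19 and mt-Atp6 by 0.18. The calls of mt-Nd5 and mt-Cytb were lost with DESeq2 (adjusted p = 0.368 and 0.0853), and that of mt-Nd5 after thinning. In the fit over 17 labels and with Eryth alone, mt-Co2, mt-Co3, mt-Nd5, mt-Cytb and mt-Atp6 did not pass. Of the nuclear members Ndufa4, whose protein is known in complex IV, had 849 and 899 against 1142 and 1194 CPM and fell by 0.42 (SE 0.04). Uqcrq fell by 0.31 and Ndufb2 by 0.26, and Ndufs7 and Ndufv3 rose by 0.26 ± 0.07 and 0.24 ± 0.07 (SE). In the fit over all 17 labels the direction of Uqcrq turned, to 0.33 with an edgeR adjusted p of 0.00805, and that of Ndufb2 to 0.10 with an adjusted p of 0.583. The calls of Ndufb2, Ndufs7 and Ndufv3 were lost with DESeq2 (adjusted p = 0.235, 0.234 and 0.353) and in edgeR without the library term (adjusted p = 0.0601, 0.0547 and 0.0598). In complex II 0 of 4 genes passed, and in ATP synthase Atp5g2 alone passed, with a rise of 0.13 ± 0.04. Sdhb and Sdhd passed as higher in the fit over 17 labels (0.31 and 0.40) and per total UMIs (0.18 and 0.23). With Eryth alone Sdhd passed as higher (0.37), and with Meg alone Sdhc passed as lower (-0.31). The Atp5g2 call was lost with DESeq2 (adjusted p = 0.529), and in edgeR without the library term (0.221) and with Eryth alone (0.680). Of the G2/M genes 11 of 15 were higher, of the S phase genes 1 was higher and 3 lower, and of 13 tested stress genes 10 were lower and 3 higher; their part in these results was not tested.

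**Figure D4:**
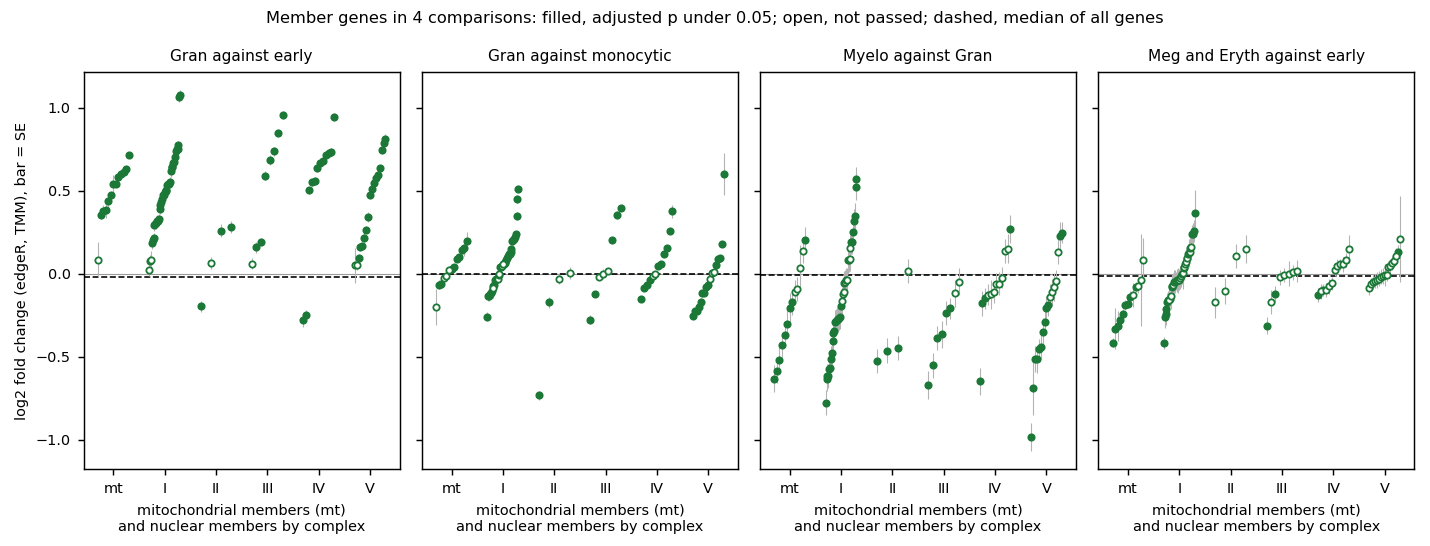
Log2 fold change (edgeR, TMM scaling) of each member in the 4 comparisons, with bars of 1 standard error, for the mitochondrial members (mt) and the nuclear members by complex (I to V). Filled points passed an adjusted p under 0.05, open points did not, and the dashed line is the median of all genes; in Gran against early most points lie above it, and in Gran against monocytic they lie on both sides.

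The comparisons share classes, Gran in 3 of them and early in 2, so their values are set side by side and not as independent results. Ndufv3 had 1.06, 0.51, 0.57 and 0.24 in the order given above and passed edgeR's test in each. Its call was lost under total-UMI scaling in Myelo against Gran (log2 fold change 0.07, edgeR adjusted p = 0.258) and, as given above, in other fits of Meg and Eryth against early. Atp5g1 had 0.79, 0.18, -0.98 and 0.08, and Sdhb -0.19, -0.73, 0.02 and 0.10. The level of Ndufv3 was 180 and 174 CPM in HSCP-2, 311 and 321 in Gran-1, 408 and 393 in Gran-2, 399 and 395 in Myelo-1 and 350.0 and 349.6 in Myelo-2. Its gene lies at chr17:31520115-31531326 and that of Atp5g1 at chr11:96072793-96075694 (GRCm38.p6).

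Genes that encode the same or a related subunit shared their transcripts differently by label. Atp5g1, Atp5g2 and Atp5g3 encode the same mature c ring protein with different import signals. In HSCP-2 Atp5g1 gave 29.6% and 33.8% of their UMIs and Atp5g2 54.8% and 51.6%. In Gran-1 the order was turned, with 47.2% and 51.4% for Atp5g1 and 38.0% and 35.0% for Atp5g2. In Myelo-2 Atp5g2 led again, with 49.8% and 47.4% against 31.6% and 34.3%. Atp5g3 took 15.6% and 14.7%, 14.8% and 13.6%, and 18.6% and 18.3% in these labels.

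Cox6b2 gave 28.7% and 26.7% of the Cox6b1 and Cox6b2 UMIs in Eryth, where its level was 248 and 233 CPM. Its share was 16.4% and 16.96% in HSCP-2, 12.0% and 12.5% in Meg, and 5.43% and 5.88% in cMoP, so Eryth did not overlap any other label. Cox7a2l gave 65.1% and 65.9% of the Cox7a2 and Cox7a2l UMIs in HSCP-2, 48.8% and 48.7% in Multi-Lin, 32.7% and 32.3% in Gran-1 and 24.5% and 22.4% in Myelo-2. Cox7a2l is not an isoform in the strict sense, and its level itself was 714 and 704 CPM in HSCP-2, 352 and 343 in Gran-1 and 172 and 156 in Myelo-2. The forms below the UMI limit were rare. Cox4i2, known from lung and low oxygen, gave 1.18% and 0.718% of the Cox4 UMIs in MDP, and Cox6a2, the muscle form, 1.13% and 3.38% of the Cox6a UMIs there. In HSCP-1, a label of few cells, Cox6a2 gave 2 of 37 and 3 of 48 Cox6a UMIs (5.41% and 6.25%). How reads shared with processed pseudogenes were assigned was not given in the sources used here, and small respiratory genes have many such copies.

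**Figure D5:**
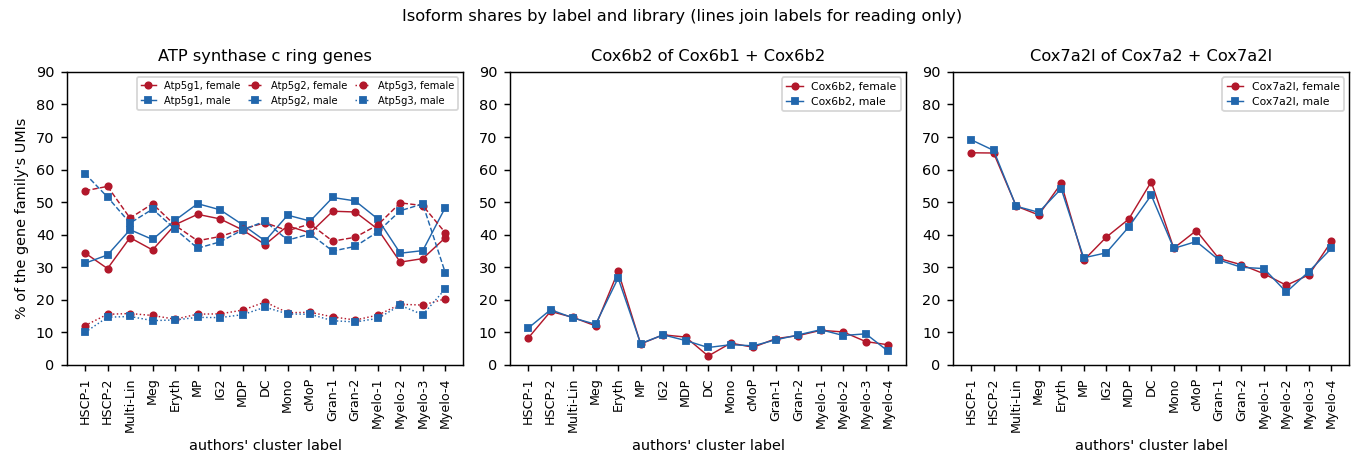
Share of related genes in the UMIs of their family, in percent, by cluster label: Atp5g1, Atp5g2 and Atp5g3 (left), Cox6b2 of Cox6b1 and Cox6b2 (middle) and Cox7a2l of Cox7a2 and Cox7a2l (right). Red circles are the female and blue squares the male library; Atp5g1 leads in Gran-1 (47.2% and 51.4%), Cox6b2 peaks in Eryth (28.7% and 26.7%), and Cox7a2l declines from 65.1% and 65.9% in HSCP-2.

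Genes that supply or build the chain were counted from lists chosen with earlier results of these data known. Over all genes tested in Gran against early, 32.5% were called higher and 34.2% lower. In Gran against early, 62 of 78 mitochondrial ribosomal proteins, which translate the mitochondrial members, rose and 3 fell, 17 of 20 import genes rose and 0 fell, and 24 of 44 assembly factors rose and 4 fell. Cox17, a copper carrier for complex IV, had 299 ± 7.81 against 167 ± 2.51 CPM (SD, 2 libraries), 0.84 on the log2 scale. Of 16 TCA cycle genes 10 rose and 1 fell, and Suclg1, a subunit of succinyl-CoA ligase, rose by 0.49. Among 20 mobile carriers and exchangers 12 rose and 5 fell, and cytochrome c, Cycs, stood at 733 and 813 against 374 and 404 CPM (0.99 ± 0.02).

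Of 13 genes for mitochondrial DNA transcription and upkeep 4 rose and 3 fell. Neither count stands above the shares of all genes in Gran against early, 32.5% higher and 34.2% lower. Slirp, which binds mitochondrial messenger RNA, rose by 0.67 (SE 0.03), and Ssbp1, the single-stranded DNA binding protein of mitochondria, by 0.22 (SE 0.04). Tfam, which packages mitochondrial DNA and starts its transcription, had 37.3 and 40.5 against 45.1 and 51.3 CPM and fell by 0.31 (SE 0.05, edgeR adjusted p = 2.93e-05). Of 9 tested nuclear regulators 2 rose and 5 fell. Gabpa, the DNA-binding subunit of the ETS factor GABP, rose by 0.54 (SE 0.09) and Esrra, a nuclear receptor, by 0.40 (SE 0.08), while Myc fell by 0.56 and Yy1 by 0.23. The coactivator Ppargc1b had 2.24 and 2.80 against 4.33 and 4.87 CPM and fell by 0.86 (SE 0.16).

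In Myelo against Gran these lists fell with the chain or further: 62 of 77 tested mitochondrial ribosomal proteins fell and 3 rose, 17 of 20 import genes fell and 0 rose, 13 of 16 TCA cycle genes fell and 0 rose, 27 of 44 assembly factors fell and 4 rose, 10 of 13 mitochondrial DNA genes fell and 1 rose, and 14 of 20 carriers fell and 2 rose. Their medians lay between -0.64 and -0.39, against -0.18 for the nuclear members. Over all genes tested in Myelo against Gran, 32.5% were called lower and 33.5% higher. Hspe1, the co-chaperonin of the matrix, fell by 1.32 and Cycs by 0.78, whereas Cox17 rose by 0.44 and Pet100, another complex IV assembly factor, by 0.46. Of the nuclear regulators 5 rose and 3 fell, Yy1 rising by 0.24 and Myc falling by 1.02.

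In Gran against monocytic, 34 of 77 mitochondrial ribosomal proteins rose and 10 fell, 18 of 44 assembly factors rose and 6 fell, 10 of 20 import genes rose and 4 fell, 5 of 16 TCA cycle genes rose and 5 fell, and 4 of 20 carriers rose and 7 fell. Of the mitochondrial DNA genes 2 rose and 2 fell, and of the nuclear regulators 2 rose and 3 fell. Over all genes tested there, 25.7% were called higher and 25.4% lower. The TCA cycle, mitochondrial DNA and regulator counts are therefore not read as results about those lists. In Meg and Eryth against early few genes passed: 6 mitochondrial ribosomal proteins rose and 2 fell, 5 assembly factors rose and 1 fell, 4 import genes rose and 1 fell, and 1 carrier rose and 2 fell. A single gene fell in each of the TCA cycle (Idh3g, by 0.19), mitochondrial DNA (Ssbp1, by 0.47) and regulator (Myc, by 0.40) lists. Over all genes tested in Meg and Eryth against early, 10.4% were called higher and 13.9% lower. Cyc1, the cytochrome c1 of complex III, which the symbol rule leaves out, had 0.43, 0.05, -0.44 and 0.17 in the 4 comparisons and passed in Gran against early and in Myelo against Gran.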

How the data were processed

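The deposited table holds UMI counts per gene and cell for 11132 cells of 1 male and 1 female library, with a second table of cluster labels by the authors. Per the submitters' processing notes, Cell Ranger 2.1.0 and the build mm10 were used. The gene annotation, clustering method and doublet treatment were not given in the sources used here, and no cell was removed or called a doublet here. IDs without a symbol (353, with 0.0230% of UMIs) could not match the rule.

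Counts were summed per library and label or class with Python 3.11.15 and its libraries pandas 2.3.3, numpy 2.4.6 and scipy 1.17.1. CPM by label is per total UMIs. Classes were compared in R 4.3.3 with edgeR 4.0.16 (TMM scaling, filterByExpr, quasi-likelihood test, a term for the library), on 4 sums with 1 residual degree of freedom, so that the spread was borrowed across genes; CPM beside fold changes is TMM-scaled. The library term pairs the sums of both classes, which come from the same library. Benjamini-Hochberg adjustment covered every gene in the fit, and calls were made under 0.05; and a standard error is the log2 fold change divided by the root of F. The method was tested on simulated data. Alternatives included DESeq2 1.42.0, other scalings and filters, cells thinned to 4000 UMIs, and labels, libraries or cells left out.

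The members, gene lists and classes were chosen with earlier results of these data known. Named in the text are the mitochondrial members, the Sdh genes, the isoform families and, per comparison and complex, up to 2 called nuclear members with the largest change in each direction, a mean of at least 50 CPM and the same sign in both libraries. For other lists, the 2 called members with the highest mean CPM could be named. The results of 1 member enter counts and sums but are not reported here by name. Ndufs1, Ndufv1, Uqcrc2, Atp5a1 where it did not pass, Cox17, Pet100, Hspe1, Suclg1, Tfam, Ppargc1b, Cycs, Cyc1, the single genes of short lists and the genes with promoters shown were chosen after their values were seen.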

Additional observations from a re-analysis of the deposited data

Results flagged for a closer look

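In some steps between neighbouring Myelo labels the log2 ratios of the libraries had opposite signs, and the difference between the libraries was not tested. From Myelo-1 to Myelo-2 the signs were the same, with -0.50 and -0.51 for the nuclear and -0.89 and -0.81 for the mitochondrial sum. From Myelo-2 to Myelo-3 the summed CPM of the nuclear members had a log2 ratio of -0.066 (female) and 0.0045 (male). For Myelo-4 against Myelo-3 the mitochondrial sum had a log2 ratio of -0.22 (female) and 0.38 (male). In the male Myelo-4 cells 1 of 28 cells held 45.5% of the mitochondrial UMIs.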

How the results depend on the processing

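The libraries limit these results: each class has 2 sums, and leaving out 1 library leaves a value with no test. Over all settings, 1474 values of single genes kept their direction and side of the threshold, 96 no longer passed, 24 newly passed and 32 changed sign. The cause of each change below was not tested, except that total UMIs shift every gene by construction.

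The fit without the library block (the pairing of sums from the same library) gave, in Gran against monocytic, 10 nuclear members higher and 6 lower and 0 mitochondrial members in either direction. In Myelo against Gran it gave 0 mitochondrial members higher, and in Meg and Eryth against early 0 nuclear members higher and 2 lower. All genes called were then 6659, 3660, 6721 and 1974 in the 4 comparisons. Of all genes, 15.6% were higher and 15.9% lower in Gran against monocytic. The shares were 30.1% and 28.5% in Myelo against Gran, and 7.31% and 10.6% in Meg and Eryth against early.

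Scaling by total UMIs gave 17 nuclear members lower in Gran against early. In Gran against monocytic it gave 19 nuclear members higher, with 4 mitochondrial members higher and 6 lower. In Myelo against Gran it gave 0 nuclear higher and 76 lower, and 0 mitochondrial higher and 13 lower. In Meg and Eryth against early it gave 23 nuclear higher and 4 lower. Of all genes, it called 16.1% higher and 56.1% lower, 20.2% and 30.2%, 15.6% and 56.2%, and 14.8% and 11.5% in these comparisons. Log2 values that changed sign in Gran against early were Ndufs1 -0.21, Ndufv1 -0.21, Sdha -0.22, Sdhc -0.028, Sdhd -0.0069, Uqcrc2 -0.23, Uqcrfs1 -0.13, Atp5a1 -0.24 and Atp5g2 -0.13. In Myelo against Gran they were mt-Co1 -0.29, mt-Atp8 -0.35, Sdhb -0.48, Cox6a1 -0.22, Cox6b2 -0.36, Atp5h -0.25 and Atp5j -0.27.

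Weighting labels equally in a fit over 17 labels gave 1 nuclear member lower in Gran against early, where Cox6b2 had 0.28, and 0 mitochondrial members lower in Gran against monocytic, where mt-Nd2 had 0.004 and mt-Nd3 0.022. In Myelo against Gran 0 mitochondrial members were higher and Cox6b2 had -0.32. In Meg and Eryth against early 50 nuclear members were higher and 2 lower, 1 mitochondrial member was higher and 1 lower, and Ndufb2 had 0.10, Uqcrq 0.33, Uqcr11 0.38, Cox5a 0.29 and Cox4i1 0.086. Of all genes, that fit called 25.7% higher and 16.4% lower, 23.0% and 20.1%, 17.2% and 30.3%, and 8.96% and 7.56% in these comparisons.

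In Gran against monocytic, DESeq2 gave 21 nuclear higher and 11 lower, and 3 mitochondrial higher and 0 lower (all genes 11.7% and 10.1%). Size-factor scaling gave 1 mitochondrial member lower, no filter on low counts 0, and thinning to 4000 UMIs 0, with 20 nuclear members higher. Of all genes, 23.6%, 16.9% and 16.1% were lower in these 3 settings, and 15.1% higher after thinning. Gran-1 as the sole Gran label gave 3 mitochondrial higher and 1 lower (all genes 23.0% and 23.0%), and with Gran-2 alone Sdhc had -0.12. In Gran against early, Gran-2 alone gave Atp5a1 -0.11. In Myelo against Gran, 0 mitochondrial members were higher with no filter, after thinning or without Myelo-1 (all genes 22.0%, 30.2% and 34.5%). Myelo-1 alone gave 4 mitochondrial members lower (all genes 19.9%), with mt-Co3 at 0.020 and mt-Atp6 at 0.027.

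In Meg and Eryth against early, DESeq2 gave 0 nuclear higher and 2 lower and 4 mitochondrial lower (all genes 2.80% higher and 4.41% lower). Thinning gave 3 nuclear and 5 mitochondrial members lower, and Eryth alone 6 nuclear and 1 mitochondrial, with Uqcr11 at 0.062. Of all genes, 7.53% were lower after thinning and 9.09% with Eryth alone. Meg alone gave Cox6b2 -0.38. Without replicate 1, the male library, Sdhd had -0.037, and without replicate 2, the female library, Sdhd had 0.34 and Uqcr11 -0.08. In Gran against monocytic, mt-Nd2 had -0.04 and Ndufs8 -0.08 without replicate 1.

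The ratio of summed nuclear CPM in MP to HSCP-2 was 1.48, and 1.49 per UMIs of nuclear genes and 1.51 after thinning. The mitochondrial ratio of Gran-2 to HSCP-2 was 1.27, with 1.28 and 1.35 under the same settings, 1.25 without cells over 10% mitochondrial UMIs and 1.31 without the 6 late neutrophil genes. Without those genes the nuclear ratio of Myelo-3 to Gran-1 was 0.962 and the mitochondrial ratio of Myelo-3 to Gran-2 0.699.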
